A study of Mus musculus with 5 samples.

Results

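The genes described here are the subunits of hypoxia-inducible factor (HIF) and the enzymes that sense oxygen for it, chosen by symbol as *Hif1a*, *Epas1*, *Hif3a*, *Arnt*, *Arnt2*, *Vhl*, *Egln1*, *Egln2*, *Egln3* and *Hif1an*. Of these 10 genes, 9 had a row among the 20224 genes of the count table, and all 9 passed the filter on low counts that kept 15032 genes for testing; *Hif3a* was not analysed here. They were measured in sympathetic neurons of mouse embryos at E14.5, in 2 control and 3 *Hif1aCKO* libraries made from 100 sorted cells each. The comparison asked what loss of *Hif1a* does to the transcriptome of these neurons.

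*Hif1aCKO-Ai14;Prph-eGFP* embryos carried *Hif1a* loxP/loxP, *Isl1Cre* and the tdTomato reporter Ai14. Control-*Ai14;Prph-eGFP* embryos carried *Hif1a* loxP/+ with the same *Isl1Cre* and reporter, so that in the controls 1 of the 2 *Hif1a* alleles could also be recombined. The description given with the series has controls without *Isl1*-Cre instead, whereas Ai14 makes tdTomato only after Cre has acted, and cells of both groups were sorted for tdTomato and for eGFP driven by the peripherin promoter. Cre stood under control of the *Isl1* locus, which is active in sympathetic, sensory and motor neurons. Pregnancies were non-diabetic, and the mice were on mixed C57BL/6J, C57BL/6N and FVB backgrounds. Each library was a separate biological sample, and p-values refer to the spread between these few libraries.

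HIF is a heterodimer of an oxygen-labile alpha subunit (HIF-1alpha from *Hif1a*, HIF-2alpha from *Epas1*, HIF-3alpha from *Hif3a*) and a stable beta subunit (ARNT or ARNT2). In the presence of oxygen the prolyl hydroxylases PHD2 (*Egln1*), PHD1 (*Egln2*) and PHD3 (*Egln3*) mark the alpha subunits, VHL recruits a ubiquitin ligase to the marked protein, and the asparaginyl hydroxylase FIH (*Hif1an*) blocks the binding of coactivators. HIF-1alpha is needed for the growth and survival of developing sympathetic neurons, and HIF-2alpha is a characteristic factor of the sympathoadrenal lineage. Most of this control acts on protein, which RNA counts do not measure.

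The floxed part of *Hif1a* is exon 2, shown here because it decides what a gene-level count can say about the deletion. In the transcript Hif1a-201 (GENCODE M21, GRCm38, plus strand) exon 2 lies at chr12:73926557-73926747 and is 191 bases long, all of them coding. It is present in 3 of 3 protein-coding transcripts of the gene. It is printed in capitals between the last 30 bases of exon 1 and the first 30 bases of exon 3, all of which are coding:
Hif1a exon 2 with flanks: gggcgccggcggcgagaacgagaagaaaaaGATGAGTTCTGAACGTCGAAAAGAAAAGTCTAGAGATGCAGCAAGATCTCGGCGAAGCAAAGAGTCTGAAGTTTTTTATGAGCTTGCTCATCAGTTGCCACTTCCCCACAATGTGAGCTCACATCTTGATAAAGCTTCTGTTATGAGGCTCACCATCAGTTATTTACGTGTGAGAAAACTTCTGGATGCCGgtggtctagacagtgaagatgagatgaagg

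The length of exon 2 leaves a remainder of 2 when divided by 3, so a transcript that joins exon 1 to exon 3 changes its reading frame. The reading frame of the intact transcript has 836 codons. When exon 2 is taken out of the reference sequence, 16 codons precede the first stop codon. That joined sequence is printed from the start codon on, with the stop codon in capitals:
Hif1a exon 1 joined to exon 3: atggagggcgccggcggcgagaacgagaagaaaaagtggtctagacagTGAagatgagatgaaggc

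Exon 2 makes up 4.04% of the 4724 bases of the transcript and 3.24% of the 5896 exonic bases annotated for the whole gene. If every read from exon 2 were lost and all other reads kept, the log2 count of *Hif1a* would move by -0.06. The count per gene therefore cannot show whether exon 2 was removed in these neurons.

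**Figure D1:**
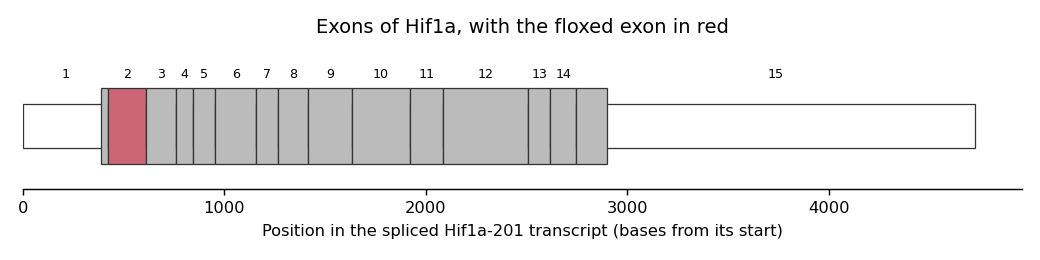
Map of the 15 exons of the spliced transcript Hif1a-201, drawn to scale in bases from its start, with coding parts as tall boxes, noncoding parts as low boxes and the floxed exon 2 in red. Exon 2 is 4.04% of the 4724 bases of this transcript, and 3.24% of the 5896 exonic bases of all transcripts of the gene.

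The total count per library ranged from 8254211 to 9700887. *Isl1* and *Prph*, genes used for the sort, had at least 7811 and 4304 reads in every library, and all 14 markers of sympathetic neurons were tested. The summed level of these 14 was 11646 and 14034 CPM (reads scaled to library size) in the controls and 10055 to 10492 in *Hif1aCKO*, below both controls in every *Hif1aCKO* library. None was called. On the lower side 7 had an unadjusted p under 0.05, *Isl1*, *Th* and *Dbh* among them, against 3.85% of all genes tested. On the higher side there was 1, *Hand2* (log2 fold change 0.59), against 3.83%. Cre is a knock-in allele of *Isl1*, and controls of the *Ai14* genotype given above carry the same allele. Only controls without Cre, as the description given with the series has them, would also differ from *Hif1aCKO* in their *Isl1* alleles. The part of this in the lower count of *Isl1* was not tested. Without Hif1aCKO replicate 3, 8 markers had an unadjusted p under 0.05 on the lower side, beside 6.76% of all genes. Without control replicate 6 the median log2 fold change of the 14 was -0.12, against -0.30 with all libraries. The part of the lower marker levels in the results on the HIF system was not tested. Markers of endothelium had a summed level of 7.98 to 11.5 CPM in controls and 6.73 to 10.2 in *Hif1aCKO*, and 6 of 10, *Cdh5*, *Tek* and *Flt1* among them, had no row. Hif1aCKO replicate 3 stood apart in markers of Schwann cell precursors, with a summed level of 137 CPM against 3.50 to 6.31 in the other 4 libraries. It held 926 reads of *Fabp7*, against 0, 0, 0 and 9 in the others, and 50 and 51 reads of *Erbb3* and *Cdh19*. Markers of mesenchyme spanned 4.03 to 19.2 CPM in controls and 11.9 to 40.3 in *Hif1aCKO*. Values without Hif1aCKO replicate 3 are given for the main differences, shares and lists.

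The messenger RNA levels of the 9 genes were compared as RPKM, the scaled read count divided by exon length and library size. They spanned more than an order of magnitude. *Egln3*, which encodes the hydroxylase PHD3, was the highest, with 69.4 and 52.1 RPKM in the 2 controls (mean 60.7 ± 12.2, SD, n = 2). *Hif1a* followed with 35.6 ± 6.88 (SD, n = 2), and *Arnt2* was the lowest with 3.92 ± 0.195 (SD, n = 2). Among all genes tested, the control mean of *Egln3* lay at percentile 93.2, that of *Hif1a* at 88.2 and that of *Arnt2* at 44.9.

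Between these came *Egln2* with 26.3 ± 3.88, *Vhl* with 24.9 ± 8.65 and *Epas1* with 10.8 ± 1.19 RPKM (SD, n = 2). *Egln1*, *Hif1an* and *Arnt* had control levels of 8.58 ± 1.64, 5.04 ± 1.29 and 4.83 ± 0.308. The control values of *Egln2* and *Vhl* overlapped, as did those of *Hif1an* and *Arnt*, and the other neighbours in this order did not overlap in the 2 libraries. PHD3 and not PHD2, the main oxygen sensor of most tissues, thus had the most abundant prolyl hydroxylase transcript in control neurons.

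In *Hif1aCKO* neurons the order was the same except for *Epas1*, which stood in place 5 in controls and in place 7 in *Hif1aCKO*, below *Egln1* and *Hif1an*. Its level there was 4.19 ± 2.42 RPKM (SD, n = 3), at percentile 45.9 against 68.1 in controls. The 3 *Hif1aCKO* values of *Epas1* overlapped with those of its neighbours *Hif1an* and *Arnt*. At the top of the order, too, *Egln3* overlapped with *Hif1a*, *Hif1a* with *Egln2* and *Egln2* with *Vhl*. In Hif1aCKO replicate 5 *Hif1a* had 41.4 RPKM and stood above *Egln3* with 35.4.

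**Figure D2:**
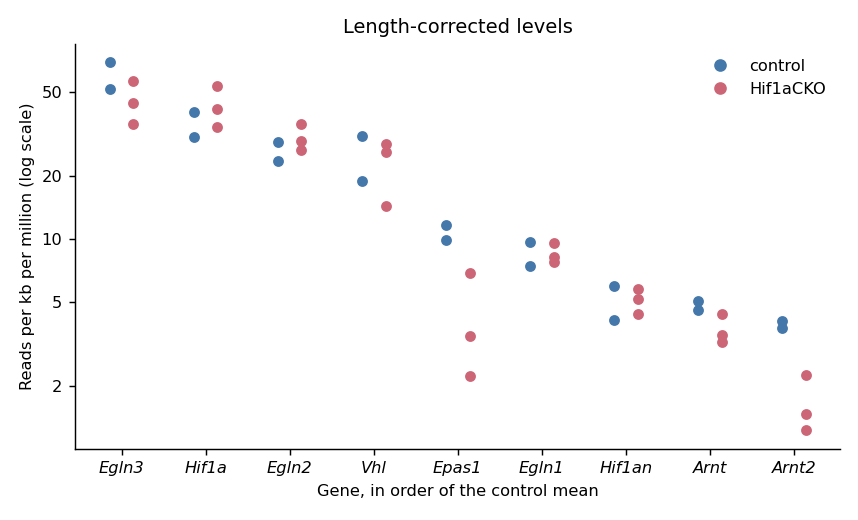
Level of each gene in RPKM (reads per kb of exon, scaled to library size) on a log axis, 1 point per library, with control libraries in blue and Hif1aCKO libraries in red, and genes in order of the control mean. *Egln3* has the highest and *Arnt2* the lowest mean in both genotypes, the red points of *Egln3*, *Hif1a* and *Egln2* overlap, and the red points of *Epas1* and *Arnt2* lie wholly below the blue ones.

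No gene of the system passed the test between genotypes. With edgeR's quasi-likelihood test, calls needed a Benjamini-Hochberg adjusted p under 0.05, a log2 fold change past 0.3 and a mean of at least 50 normalized counts, and 0 of 9 genes were called, against 0% of the 15032 genes tested. At an unadjusted p under 0.05 there were 2 of 9, *Epas1* and *Arnt2*, both with lower counts in *Hif1aCKO*, against 7.67% of all genes in either direction, 3.85% on the lower and 3.83% on the higher side. DESeq2 called 0 of 9 and 0.388% of all genes, and limma-voom called 0 of 9 and 0 of all genes. The *Hif1aCKO* and control libraries did not overlap for 3 of 9, *Epas1*, *Arnt* and *Arnt2*, all on the lower side, against 25.7% of all genes in either direction and 12.9% on the lower side. The log2 fold change, *Hif1aCKO* over control, was negative for 6 genes and positive for 3, with a median of -0.12 beside 0.01 over all genes tested.

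*Hif1a*, the targeted gene, had a normalized read count of 2086 in control replicate 5 and of 1584 in control replicate 6. The 3 libraries labelled *Hif1aCKO* had 2747 (replicate 3), 1757 (replicate 4) and 2135 (replicate 5). The groups overlapped, and the highest count of all stood in Hif1aCKO replicate 3. The log2 fold change was 0.27 with an SE of 0.22 and an adjusted p of 0.80, and its 95% interval ran from -0.23 to 0.77. With 1 library left out the log2 fold change ranged from 0.08, without control replicate 6 or without Hif1aCKO replicate 3, to 0.41 without Hif1aCKO replicate 4 and 0.48 without control replicate 5. Since nearly all counted bases lie outside exon 2, this value checks neither the labels nor the recombination.

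A noncoding gene, *Gm15283*, lies antisense to *Hif1a* and shares 5.60% of its exonic bases. It had normalized counts of 218 and 195 in the controls (replicates 5 and 6), against 138, 69.9 and 118 in Hif1aCKO replicates 3, 4 and 5. All 3 *Hif1aCKO* values lay below both controls, with a log2 fold change of -0.92 (SE 0.36) and an adjusted p of 0.62, and was -1.14 without Hif1aCKO replicate 3. The counting did not use strand, so a read from the bases that *Hif1a* and *Gm15283* share cannot be given to 1 of the 2 genes.

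*Epas1* encodes HIF-2alpha, the other main alpha subunit. Its normalized count was 485 in control replicate 5 and 568 in control replicate 6, against 109, 338 and 168 in Hif1aCKO replicates 3, 4 and 5. The groups did not overlap, and the highest *Hif1aCKO* value was 69.5% of the lower control. The fitted *Hif1aCKO* level was 39.0% of the control level, with a log2 fold change of -1.36 (SE 0.42, 95% interval -2.32 to -0.40). The unadjusted p was 0.0116 and the adjusted p 0.60 with edgeR, and the lowest adjusted p over the alternatives was 0.124 with DESeq2.

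The *Hif1aCKO* libraries differed among themselves in *Epas1* by a factor of 3.09, while the counting error of a library was 4.04% to 9.90% of its value. Hif1aCKO replicate 3, the library with the Schwann cell markers, had the lowest value and Hif1aCKO replicate 4 the highest. The log2 fold change was -1.06 without Hif1aCKO replicate 3 and -1.92 without Hif1aCKO replicate 4. Without control replicate 6 the unadjusted p was 0.0519. Fewer cells that express a gene and less RNA of it per cell cannot be told apart in such bulk libraries.

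*Arnt*, the ubiquitous beta subunit, had normalized counts of 323 and 353 in the controls (replicates 5 and 6), against 227, 309.6 and 245 in Hif1aCKO replicates 3, 4 and 5. The groups did not overlap, but Hif1aCKO replicate 4 lay at 95.9% of the lower control, and with scaling by total count alone the groups overlapped. The log2 fold change was -0.38 (SE 0.24, 95% interval -0.93 to 0.18) with an adjusted p of 0.74, and -0.29 without Hif1aCKO replicate 3.

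*Arnt2*, the beta subunit known from neurons, had normalized counts of 254 and 273 in the controls (replicates 5 and 6), against 82.6, 98.9 and 151 in Hif1aCKO replicates 3, 4 and 5. All 3 *Hif1aCKO* libraries lay well below both controls, the highest at 59.3% of the lower control. The fitted *Hif1aCKO* level was 42.1% of the control level, with a log2 fold change of -1.25 (SE 0.33, 95% interval -2.01 to -0.49), an unadjusted p of 0.00537 and an adjusted p of 0.59. The exact permutation p was 0.1 (two-sided), the smallest that 2 against 3 libraries allow. By the same test it was 0.2 for *Epas1* and 0.2 for *Arnt*, whose groups did not overlap either.

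The difference in *Arnt2* was -1.08 on the log2 scale without Hif1aCKO replicate 3 and -1.54 without Hif1aCKO replicate 5, and its unadjusted p stayed under 0.05 with any 1 library left out. The raw counts were 77 to 294 reads, with a counting error of 5.83% to 11.4%. An antisense gene, *Gm30873*, shares 2.78% of the exonic bases and had at most 9 reads in a library.

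*Vhl*, the substrate receptor of the ligase that degrades HIF-alpha, had normalized counts of 494 and 814 in the controls (replicates 5 and 6), against 746, 376 and 679 in Hif1aCKO replicates 3, 4 and 5. The groups overlapped, and the 2 controls alone differed by a factor of 1.65. The log2 fold change was -0.12 (SE 0.33, 95% interval -0.87 to 0.63) with an adjusted p of 0.96. A processed pseudogene of *Vhl* exists, and reads that match more than 1 place were not counted.

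Among the prolyl hydroxylases, *Egln1* had normalized counts of 233 and 306 in the controls (replicates 5 and 6), against 302, 258 and 243 in Hif1aCKO replicates 3, 4 and 5. Its 3 *Hif1aCKO* values all lay between the controls, with a log2 fold change of -0.01 and a 95% interval of -0.59 to 0.57. *Egln2*, for PHD1, had 711 and 577 in the controls and 719, 653 and 863 in *Hif1aCKO*. Here too the groups overlapped, with a log2 fold change of 0.21 and a 95% interval of -0.24 to 0.66. It ranged with 1 library left out from 0.061 without control replicate 6 and 0.092 without Hif1aCKO replicate 5 to 0.37 without control replicate 5.

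*Egln3*, a gene known to be induced by HIF, had normalized counts of 1616 and 1213 in the controls (replicates 5 and 6), against 1323, 1034 and 825 in Hif1aCKO replicates 3, 4 and 5. Hif1aCKO replicate 3 lay above control replicate 6, and the other 2 *Hif1aCKO* libraries lay below both controls. The log2 fold change was -0.42 (SE 0.23, 95% interval -0.94 to 0.11) with an unadjusted p of 0.106 and an adjusted p of 0.71. Without Hif1aCKO replicate 3 it was -0.61 with an unadjusted p of 0.0231, and without control replicate 5 it was -0.20.

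*Hif1an*, for the asparaginyl hydroxylase FIH, had normalized counts of 239 and 344 in the controls (replicates 5 and 6), against 335, 255 and 301 in Hif1aCKO replicates 3, 4 and 5. All 3 *Hif1aCKO* libraries lay between the controls, with a log2 fold change of 0.02 and a 95% interval of -0.58 to 0.63. For *Egln1*, *Egln2*, *Hif1an* and *Vhl* the intervals still included changes of more than 0.5 on the log2 scale.

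**Figure D3:**
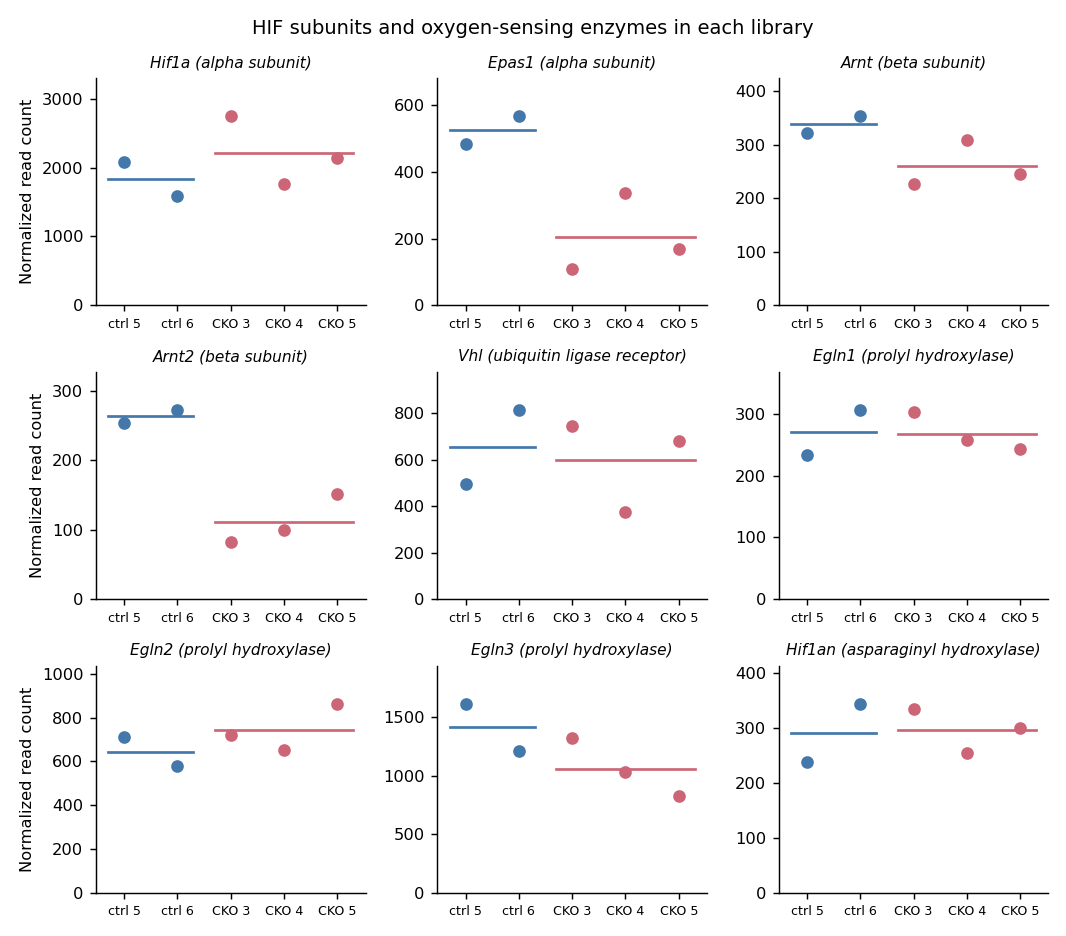
Normalized read count of each of the 9 genes by library (ctrl, control, blue; CKO, Hif1aCKO, red; numbers are the replicate numbers), with a horizontal line at each group mean and axes from 0. *Epas1*, *Arnt* and *Arnt2* have all 3 red points below both blue points, and in the other 6 panels the colours overlap.

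**Figure D4:**
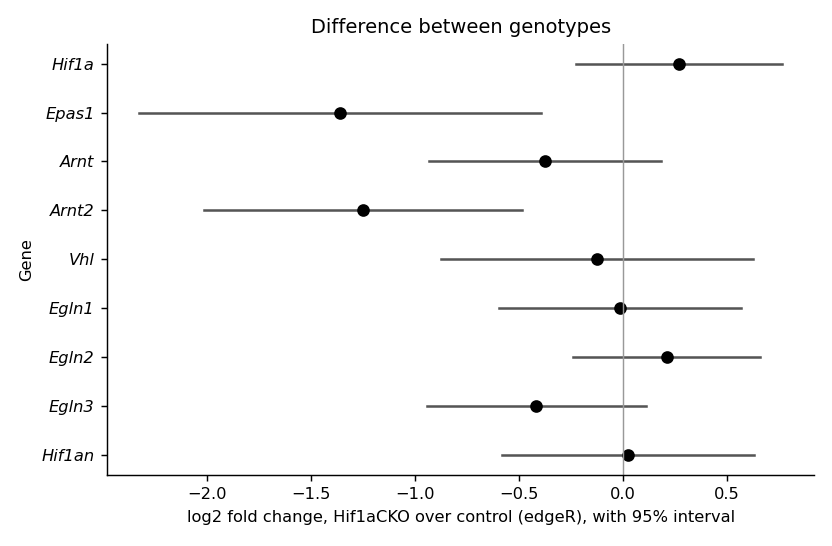
Log2 fold change of each gene, Hif1aCKO over control, from edgeR, with its 95% interval as a line and 0 marked. The intervals of *Epas1* and *Arnt2* lie below 0 before adjustment over all genes, and the other 7 include 0.

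The composition of each class was compared within libraries, where scaling between libraries has no part. Of the reads per kb of both measured alpha subunits, *Hif1a* made up 80.3% and 72.6% in the controls and 96.0%, 83.2% and 92.3% in Hif1aCKO replicates 3, 4 and 5. The share was higher in all 3 *Hif1aCKO* libraries than in both controls, by 14.05 percentage points on average, with an exact permutation p of 0.2, and by 11.3 points without Hif1aCKO replicate 3. The ratio of *Hif1a* to *Epas1* was 4.08 and 2.65 in the controls and 23.8, 4.94 and 12.02 in *Hif1aCKO*. In controls and *Hif1aCKO* alike, alpha-subunit transcripts were thus largely those of the targeted gene. The counts of *Hif1a* itself overlapped between groups, while those of *Epas1* were lower in all 3 *Hif1aCKO* libraries. Whether the *Hif1a* reads of *Hif1aCKO* came from RNA without exon 2 cannot be read from counts per gene.

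Among the beta subunits, *Arnt* made up 55.0% and 55.4% in the controls and 72.6%, 75.0% and 61.0% in Hif1aCKO replicates 3, 4 and 5. The controls were close to equal amounts of *Arnt* and *Arnt2*, and all 3 *Hif1aCKO* libraries lay above them, by 14.3 percentage points (exact permutation p of 0.2) and by 12.8 points without Hif1aCKO replicate 3. The ratio of alpha to beta subunit transcripts was 6.01 and 4.65 in the controls and 12.4, 6.96 and 7.81 in *Hif1aCKO*. Its difference was 3.73 (exact permutation p of 0.2), and 2.05 without Hif1aCKO replicate 3.

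Among the prolyl hydroxylases, *Egln3* made up 65.5% and 61.0% in the controls and 59.3%, 56.0% and 45.2% in Hif1aCKO replicates 3, 4 and 5. The share was lower in all 3 *Hif1aCKO* libraries, with a difference of -9.78 percentage points (exact permutation p of 0.2), although the normalized counts of *Egln3* itself overlapped. The difference was -5.62 points without Hif1aCKO replicate 5 and -12.7 points without Hif1aCKO replicate 3. *Egln2* made up 27.4% and 27.6% in the controls and 30.7%, 33.6% and 44.9% in *Hif1aCKO*, and the share of *Egln1* overlapped between groups. In Hif1aCKO replicate 5 *Egln3* and *Egln2* were nearly level, with a ratio of 1.01 against 2.39 and 2.21 in the controls.

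**Figure D5:**
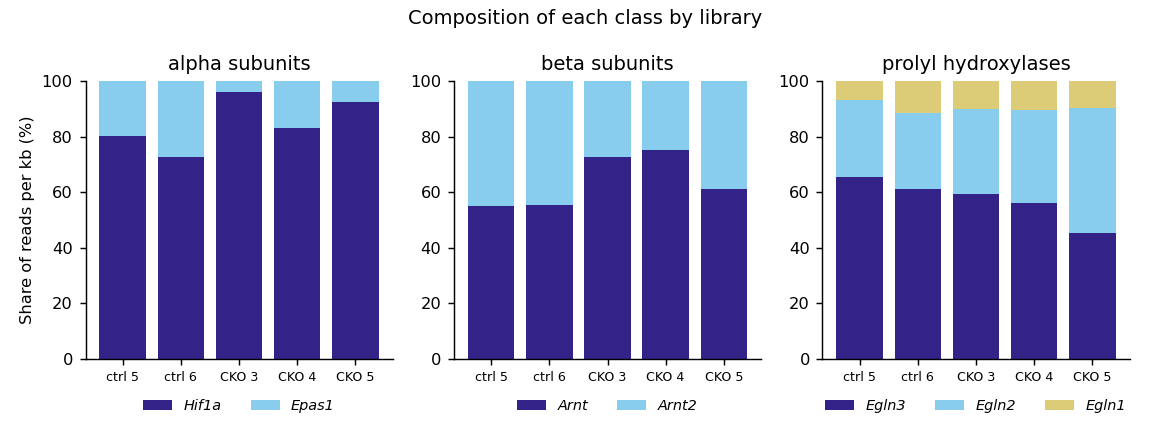
Stacked bars of the share of reads per kb, in percent, that each gene took of its class in each library (ctrl, control; CKO, Hif1aCKO). The *Hif1a* and *Arnt* parts are larger and the *Egln3* part is smaller in all 3 Hif1aCKO libraries than in both controls.

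The promoters of the hydroxylase genes are shown because PHD2 and PHD3 are known to be induced by HIF, which binds the core letters ACGTG or GCGTG. RefSeq windows (GRCm38.p6) of the 250 bases before the start site were found for 9 of the 10 genes, and *Epas1* had none. At least 1 of these motifs, on either strand, was in the window of 6 genes, and 38.6% of all 32841 windows hold at least 1. *Egln2* had 4 in its first window, *Hif1a* 3, *Hif3a* and *Egln1* 2 each, and *Arnt* and *Egln3* 1 each. In *Hif1a*, 2 of the 3 are the same palindrome read on both strands. No motif stood in the windows of *Arnt2*, *Vhl* and *Hif1an*. The windows of *Egln3* (chr12:54203875-54204124, minus strand) and *Egln1* (chr8:124949255-124949504, minus strand) are printed with the motifs in capitals:
Egln3 promoter: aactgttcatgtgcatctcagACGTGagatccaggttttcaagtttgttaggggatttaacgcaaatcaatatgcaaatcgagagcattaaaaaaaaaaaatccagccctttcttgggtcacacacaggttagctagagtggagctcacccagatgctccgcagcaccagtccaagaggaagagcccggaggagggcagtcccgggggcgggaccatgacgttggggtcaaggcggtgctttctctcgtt
Egln1 promoter: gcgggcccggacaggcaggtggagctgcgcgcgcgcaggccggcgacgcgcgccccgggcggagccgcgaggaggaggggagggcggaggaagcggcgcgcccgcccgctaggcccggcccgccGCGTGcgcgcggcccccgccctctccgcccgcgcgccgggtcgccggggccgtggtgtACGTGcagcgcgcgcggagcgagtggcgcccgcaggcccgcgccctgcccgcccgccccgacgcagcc

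The 2 windows differ in base composition, with 50.8% G and C in *Egln3* and 86.0% in *Egln1*. A match of 5 letters describes the sequence and not binding, and distant elements were not searched.

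Genes that act with the HIF system were counted by lists. Of 15 genes for the VHL ligase and HIF turnover, 5 had a negative and 10 a positive log2 fold change (median 0.06, beside 0.01 over all genes), 0 were called, and 1 had an unadjusted p under 0.05, against 7.67% of all genes. That share is near the share over all genes and says nothing particular of the list. The gene was *Ube2m*, which carries NEDD8 to cullins, with normalized counts of 179 and 168 in the controls and 226, 385 and 389 in *Hif1aCKO*. Its values were above both controls in all 3 *Hif1aCKO* libraries, with an adjusted p of 0.62.

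Of 9 HIF coactivators and CITED competitors tested, 4 had a negative and 5 a positive log2 fold change (median 0.05) and 0 had an unadjusted p under 0.05, the smallest being those of *Ep300* (p300) and *Cdk8*. Of 5 other bHLH-PAS factors tested, relatives of the HIF subunits, 2 were negative and 3 positive (median 0.05), and 0 had an unadjusted p under 0.05. The circadian factor *Clock* had the smallest, 0.0571, with a log2 fold change of 0.58. *Clock* was also the 1 of these 5 whose *Hif1aCKO* libraries all lay above both controls, and none of the 5 had all of them below, against 12.9% of all genes on each side.

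Of 47 other 2-oxoglutarate-dependent dioxygenases tested, which share their chemistry with the hydroxylases, 22 were negative and 25 positive (median 0.02) and 3 had an unadjusted p under 0.05, a share near the 7.67% of all genes. These were *Asph*, an aspartyl hydroxylase, with a log2 fold change of -0.47, the histone demethylase *Kdm5c* with 0.81 and the dioxygenase *Alkbh1* with 0.43.

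Of 18 canonical HIF target genes tested, 14 had a negative and 4 a positive log2 fold change, with a median of -0.28. None was called, 4 had an unadjusted p under 0.05 and 7 had all *Hif1aCKO* libraries below both controls, against 3.85% and 12.9% of all genes on the lower side. The 4 were the glucose transporters *Slc2a3* (log2 fold change -1.15) and *Slc2a1* (-1.09), the mitophagy receptor *Bnip3* (-0.66) and the glycolytic enzyme *Aldoa* (-0.44). The smallest unadjusted p was that of *Slc2a3*, 0.000568, whose normalized counts were 2673 and 4029 in the controls and 1809, 1341 and 1378 in *Hif1aCKO*. Targets with an unadjusted p under 0.05 numbered 6 without Hif1aCKO replicate 3 and 2 without Hif1aCKO replicate 4 or 5. All were on the lower side, beside 6.76%, 3.75% and 3.30% of all genes without Hif1aCKO replicates 3, 4 and 5. No such count is given where a lone control remained. Without control replicate 6 the differences of all 4 genes were smaller than with all libraries. The log2 fold changes were then -0.83 for *Slc2a3*, -0.64 for *Slc2a1*, -0.48 for *Bnip3* and -0.23 for *Aldoa*.

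Among the genes whose pattern over the 5 libraries was most like that of *Hif1a* were *C330007P06Rik* and *Zfp84*. They were ranked by the root mean square difference of centred log2 normalized counts, which was 0.039 and 0.040. *Zfp84*, for a zinc finger protein, had normalized counts of 206 and 169.7 in the controls (replicates 5 and 6), against 281, 185 and 224 in Hif1aCKO replicates 3, 4 and 5. As for *Hif1a*, the highest value stood in Hif1aCKO replicate 3 and the lowest in control replicate 6, a likeness that the ranking itself selects. How close a match arises by chance among so many genes was not tested.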

How the data were processed

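The authors trimmed reads with cutadapt 1.18 and Trimmomatic, removed ribosomal and vector reads with Bowtie 1.2.2 and SortMeRNA, mapped them to GRCm38 with STAR 2.7.0c, and counted reads per gene with Rsubread at default settings, without multi-mapping reads. The deposited values are raw read counts per gene, 1 column per library, with no molecular identifiers, so that counting errors cover counting only. The members and lists were chosen with earlier results of these data known.

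Counts were tested with edgeR 4.0.16 (quasi-likelihood test, TMM scaling, filterByExpr, Benjamini-Hochberg over 15032 genes), with the study's thresholds. DESeq2 1.42.0 and limma-voom (limma 3.58.1) were alternatives, with other scalings, filters and each library left out. The steps were tested on simulated data. Levels between genes are TMM-scaled reads per kb of union exon length (GENCODE M21, in which 20195 of 20224 identifiers matched), scaled to library size (RPKM). Shares were compared with a two-sided exact permutation test over libraries. The alpha-subunit share was planned with *Hif3a* and used *Hif1a* and *Epas1*. Default counting uses no strand. Named were all members, the genes of each list with an unadjusted p under 0.05 (at most the 4 smallest, or the 2 smallest if none), defining markers, and the 3 genes most like *Hif1a*, 1 of which is not reported here. *Aldoa*, a symbol with more than 1 identifier, was read from the identifier with the most counts.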

Additional observations from a re-analysis of the deposited data

How the results depend on the processing

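Over 11 alternative settings, 99 fold changes of the 9 genes were recomputed: 91 kept their direction and 8 took the opposite one, and none was called. *Egln1* was at 0.023 with upper-quartile scaling, 0.19 without control replicate 6, 0.014 without Hif1aCKO replicate 4 and 0.054 without Hif1aCKO replicate 5, over a leave-one-out range of -0.20 to 0.19. *Hif1an* was at -0.22 without control replicate 5 and -0.071 without Hif1aCKO replicate 3 (range -0.22 to 0.31), and *Vhl* at 0.28 without control replicate 6 and 0.12 without Hif1aCKO replicate 4 (range -0.44 to 0.28). With 1 library left out, 1 to 3 genes had an unadjusted p under 0.05 (1 without control replicate 6), beside 3.83% of all genes without control replicate 6 and 12.1% without Hif1aCKO replicate 3. Between 3 and 8 did not overlap between groups (8, 6 and 5 without control replicate 5, control replicate 6 and Hif1aCKO replicate 4), beside 52.0%, 48.8% and 38.7% of all genes. Leaving out libraries for the lists was added after seeing the data. The 4 comparisons of shares and ratios kept their direction under 7 settings. With a lone control its spread is assumed to equal that of *Hif1aCKO*. No paired analysis was possible, because the labels name no litter or batch that would pair a control with a *Hif1aCKO* library. Only 1 replicate number occurs in both groups, and the labels do not say that it marks a pair.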

Other observations

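The hydroxylases use 2-oxoglutarate and are inhibited by succinate and fumarate, and of 13 enzymes that make or use these metabolites 10 had a negative and 3 a positive log2 fold change (median -0.10, beside 0.01 over all genes), with 0 called. *Idh1*, the cytosolic isocitrate dehydrogenase, had normalized counts of 7055 and 8640 in the controls and of 6557, 4629 and 5334 in Hif1aCKO replicates 3, 4 and 5, a log2 fold change of -0.51 with an unadjusted p of 0.0143. *Idh2*, its mitochondrial counterpart, had 1209 and 1126 in the controls and 1438, 1578 and 1632 in *Hif1aCKO*, a log2 fold change of 0.41 with an unadjusted p of 0.0251. The groups did not overlap for either gene. Of the 13 genes, 2 had all *Hif1aCKO* libraries below both controls and 1 had all above. Over all genes 25.7% did not overlap in either direction, a share near that of the list. The log2 fold changes of *Idh1* and *Idh2* had opposite signs. They were -0.66 and 0.46 without Hif1aCKO replicate 3, and -0.36 and 0.35 without control replicate 6. The 2 of 13 genes with an unadjusted p under 0.05 stand beside 7.67% of all genes.

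In the marker lists for other cells of the *Isl1* and sympathoadrenal lineages, some genes were, like *Epas1*, high in Hif1aCKO replicate 4 and low in replicates 3 and 5, and others were not. Those named were chosen after their values were seen. *Chgb*, for a granin of chromaffin cells and neurons, had normalized counts of 5514 and 8695 in the controls and of 776, 4732 and 1106 in Hif1aCKO replicates 3, 4 and 5. *Chat*, for choline acetyltransferase, had 54.2 and 49.2 in the controls and 12.9, 51.9 and 12.6 in *Hif1aCKO*. *Slc5a7*, for the choline transporter, had raw counts of 19 and 60 in the controls and of 0, 44 and 0 in *Hif1aCKO*. Within *Hif1aCKO*, other genes of the same lists had their lowest value in replicate 4. *Pnmt*, a chromaffin cell marker with few reads, had 29.2 and 51.0 in the controls and 18.2, 3.00 and 10.7 in Hif1aCKO replicates 3, 4 and 5. *Cartpt*, for a neuropeptide, had 7651 and 6243 in the controls and 13438, 11310 and 17992 in Hif1aCKO replicates 3, 4 and 5, with a log2 fold change of 1.04 and the smallest unadjusted p of the chromaffin list, 0.00071. *Slc18a3*, for the vesicular acetylcholine transporter, had 611 and 839 in the controls and 285, 266 and 524 in *Hif1aCKO*, with 266 raw reads in replicates 3 and 4 alike. *Arnt2*, too, had its highest *Hif1aCKO* value in replicate 5. The part of the mix of cells in the difference in *Epas1* was not tested.

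The summed levels of the other marker lists were 1927 to 2085 CPM in controls and 1963 to 2607 in *Hif1aCKO* for chromaffin cells, 51.1 to 97.8 and 65.1 to 96.5 for sensory neurons, 78.3 to 108 and 34.1 to 61.4 for motor neurons, 0.953 to 1.59 and 1.72 to 3.54 for erythroid cells, and 211 to 315 and 216 to 243 for genes of the dissociation response. Of the motor neuron markers, *Chat*, *Slc5a7* and *Slc18a3* had rows, and the defining factors *Mnx1*, *Lhx3*, *Nkx6-1* and *Olig2* had none.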
